A study of Saccharomyces cerevisiae with 44 samples.

Results

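The comparison was between mRNAs recovered through Cbp80 and then Yra1 from budding yeast (Saccharomyces cerevisiae) that lacked THO2 (tho2Δ) and from cells that carried it (wild type). Its members were 6 of the 30 libraries of the study, 3 from tho2Δ cells and 3 from wild-type cells, chosen by the genotype and pulldown that their labels give. The tho2Δ strain carried a tho2Δ::KanMX deletion, CBP80-PrA (a protein A tag on Cbp80) and SNAPf-YRA1, and the wild-type strain carried CBP80-PrA and SNAPf-YRA1 alone, both in the BY4741/2 background. Both were grown in YPD at 30 °C. The cleared lysate, not the living cell, was treated with 0.2% formaldehyde. RNA was purified in 2 steps, first on IgG beads through the protein A tag with release by HRV3C protease, then with an antibody against Yra1. The same lysates gave total RNA from 7.5% of their volume, 3 libraries of each strain. Wild-type and tho2Δ strains without a protein A tag and a wild-type Hpr1-PrA strain went through the same pulldown and gave total RNA too. In the results these other libraries appear only beside the 6. They also entered the fits, where they bear on the filter and on the estimate of the spread. The comparison asks how the set of mRNAs held together with Cbp80 and Yra1 depends on the THO complex.

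Cbp80, encoded by STO1, forms the nuclear cap-binding complex together with Cbp20, and binds the cap of a transcript as soon as it is made. Yra1 (Aly/REF in animals) is an RNA-binding adaptor that joins nascent mRNA and hands it to the export receptor Mex67-Mtr2. THO, made of Tho2, Hpr1, Mft1, Thp2 and Tex1, joins elongating RNA polymerase II and, with the helicase Sub2 and with Yra1, forms TREX, a complex known for coupling transcription to export and for limiting RNA-DNA hybrids on long or highly transcribed genes.

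The pulldowns held 265792, 144922 and 117192 gene counts in tho2Δ, against 257286, 459999 and 301232 in wild type, each count a deduplicated 3′-end tag. Of all counts, 59.4%, 59.2% and 63.6% were assigned to no gene in the tho2Δ pulldowns, against 55.8%, 50.9% and 53.0% in wild type (60.8% ± 2.46 against 53.2% ± 2.50, SD, n = 3 each, exact permutation p = 0.1, the smallest that 3 against 3 allows). Levels below are in CPM, gene counts scaled to a common library total with TMM factors. In log2 CPM the replicates correlated across genes at 0.82 to 0.93 in tho2Δ and at 0.92 to 0.94 in wild type. THO2 (YNL139C) had 0 counts in each tho2Δ pulldown, against 12, 28 and 14 in wild type, and was at least 9.07-fold lower with a floor of 3 counts over the group. The 5 genes specific to a MATa culture were all detected, with summed counts of 222 to 707 in tho2Δ and 871 to 1650 in wild type, and 3 MATα-specific genes summed to 1 to 6 and 3 to 13. Genes of chromosome XVI stood apart. In total RNA of the Cbp80-PrA strains 170 of 389 were higher in tho2Δ, with a median log2 fold change of 0.95. Between the pulldowns of the strains without a tag, 1 of 250 such genes was higher in tho2Δ and 5 were lower, with a median of -0.20. The main counts are also given without the chromosome. The amount of RNA recovered was not measured, and every fold change compares shares of a library. Fewer molecules of one mRNA and more of the others cannot be told apart.

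The shares of many mRNAs differed between tho2Δ and wild-type pulldowns. The genes with the largest increases included ribosome assembly factors such as NOP16 and RRP15, the kinetochore gene MTW1 and the spindle pole gene KAR1. Those with the largest decreases included the phosphate transporter PHO84, the uridine permease FUI1, the amino acid synthesis gene ILV2 and the chaperone KAR2. Of 2997 genes with enough counts to test, 302 were higher (10.1%) and 236 were lower (7.87%) in tho2Δ, 18.0% in all. A gene was called when its adjusted p in edgeR was under 0.05 and its log2 fold change passed 1 or -1. Between the pulldowns without a tag 24 of the same 2997 genes were higher (0.801%) and 30 were lower (1.0%) in tho2Δ, 1.80% in all, from 23769 to 38378 gene counts a library in tho2Δ and 44389 to 71037 in wild type, fewer than the tagged pulldowns held. The median log2 fold change over all tested genes was -0.06. In total RNA of the same strains 256 of 4792 genes were higher (5.34%) and 104 were lower (2.17%), 7.51% in all, and without TMM scaling the split was 314 and 73. Without chromosome XVI the total RNA counts were 90 higher and 77 lower. Of the 302 genes higher in the pulldown 90 were also higher in total RNA (29.8% of the 302 and 35.2% of the 256). Of the 236 lower genes 27 were also lower there (11.4% of the 236 and 25.96% of the 104). Without chromosome XVI the pulldown counts were 213 higher and 220 lower. The 3 libraries of one genotype all lay above the 3 of the other at 43.8% of the tested genes.

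The gene with the largest increase was NOP16 (YER002W, chromosome V, 156803 to 157498 in build R64), which encodes a nucleolar protein of the large ribosomal subunit's assembly. It had 6388, 7353 and 3326 CPM in tho2Δ pulldowns, against 376, 457 and 359 CPM in wild type. The lowest tho2Δ library was thus far above the highest wild-type library, and the fitted rise was 14.3-fold (log2 3.83 ± 0.27, SE, adjusted p = 3.58e-19). In total RNA NOP16 had 1405 ± 28.8 CPM in tho2Δ and 694 ± 43.5 CPM in wild type (SD, n = 3 each), and the pulldown change exceeded the total RNA change by 2.97 ± 0.29 on the log2 scale. The pulldowns without a tag held 29, 14 and 32 NOP16 counts in tho2Δ and 27, 22 and 18 in wild type.

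Other nucleolar assembly factors rose beside it. RRP15, needed for pre-rRNA of the large subunit, had 857, 635 and 742 CPM in tho2Δ against 70.4, 72.0 and 55.2 CPM in wild type (log2 3.48 ± 0.27, adjusted p = 1.86e-17). NOP53, which links pre-ribosomes to the nuclear exosome, had 1236, 1085 and 550.2 CPM against 117, 129 and 89.7 CPM (log2 3.09 ± 0.26, adjusted p = 4.13e-16). Both lie on chromosome XVI, and in total RNA their log2 fold changes were 1.15 ± 0.09 and 1.29 ± 0.09. NOP8, another factor of the large subunit, lies on chromosome XV (53098 to 54552) and had 506, 414 and 317 CPM in tho2Δ against 66.5, 44.4 and 44.9 CPM in wild type (log2 3.03 ± 0.27, adjusted p = 6.60e-15, total RNA 0.64 ± 0.12). In each of the 3 the genotypes did not overlap.

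MTW1, KAR1, SPC110 and CDC31 also rose, and no list of kinetochore or spindle pole genes was made. CDC31 had the highest fold change of the mRNP assembly and export list. That list had 2 higher (11.1%) and 1 lower (5.56%) of 18 tested genes and a median of -0.07. MTW1 (chromosome I, 79718 to 80587), a kinetochore subunit, had 403, 457 and 358 CPM in tho2Δ against 39.1, 33.9 and 20.7 CPM in wild type, a 12.6-fold rise (log2 3.66 ± 0.31, adjusted p = 1.36e-15). Its total RNA was not called different, with 93.7 ± 22.3 CPM in tho2Δ and 68.2 ± 15.9 CPM in wild type (log2 0.46 ± 0.20). KAR1 (chromosome XIV, 286308 to 287609), which encodes a protein of the half-bridge of the spindle pole body, had 659.7, 607 and 317 CPM in tho2Δ against 39.1, 61.4 and 44.9 CPM in wild type (log2 3.40 ± 0.28, adjusted p = 1.90e-16). SPC110 (chromosome IV, 1186107 to 1188941), which anchors microtubules to the inner face of the spindle pole body, had 217, 221 and 325 CPM against 31.3, 25.4 and 34.5 CPM (log2 3.03 ± 0.32), with a total RNA rise of 1.52 ± 0.10. CDC31, the yeast centrin, had 5614, 6104 and 3401 CPM against 786, 881 and 745 CPM (log2 2.65 ± 0.25). Its total RNA was 209 ± 13.6 CPM in tho2Δ and 112 ± 36.9 CPM in wild type.

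LEO1, RTT103 and TOA1 rose too, but the elongation and 3′ processing list that holds LEO1 had 1 higher (5.56%) and 2 lower (11.1%) of 18 tested genes and a median of -0.29. LEO1 encodes a subunit of the Paf1 elongation complex, and had 1632, 1628 and 1976 CPM in tho2Δ against 235, 279 and 179 CPM in wild type (log2 2.90 ± 0.25, adjusted p = 1.36e-15, total RNA 0.30 ± 0.10). RTT103, whose product reads the tail of RNA polymerase II at termination, had 292, 299.8 and 275 CPM against 43.0, 40.2 and 37.95 CPM (log2 2.82 ± 0.29). TOA1, the large subunit of the initiation factor TFIIA, had 1442, 1563 and 925 CPM against 223, 190.5 and 148 CPM (log2 2.81 ± 0.24). The tho2Δ libraries of these genes lay above every wild-type library, and their levels in total RNA differed by less than 2-fold. CWC15 and SLU7 encode spliceosome proteins and rose by log2 2.92 ± 0.44 and 2.79 ± 0.31, beside 0.54 ± 0.13 and 1.23 ± 0.13 in total RNA. MPP6 and LRP1 encode cofactors of the nuclear exosome and rose by 2.53 ± 0.25 and 1.77 ± 0.28. The nuclear exosome and termination list that holds MPP6 had 2 higher (10.5%) and 2 lower (10.5%) of 19 tested genes. Its median was 0.04, and its lowest member was RRP4 (log2 -1.16). IES2, of the INO80 chromatin remodeller, rose by 2.77 ± 0.27 with no call in total RNA (0.18 ± 0.12). Outside the nucleus, PEX19, the receptor for newly made peroxisomal membrane proteins, had 2272, 2449 and 1817 CPM in tho2Δ against 219, 231 and 159 CPM in wild type (log2 3.41 ± 0.25, adjusted p = 1.06e-18). COS4 (log2 3.74 ± 0.44) has near-identical copies in COS1, COS2, COS3 and COS6, so its counts are uncertain.

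**Figure D1:**
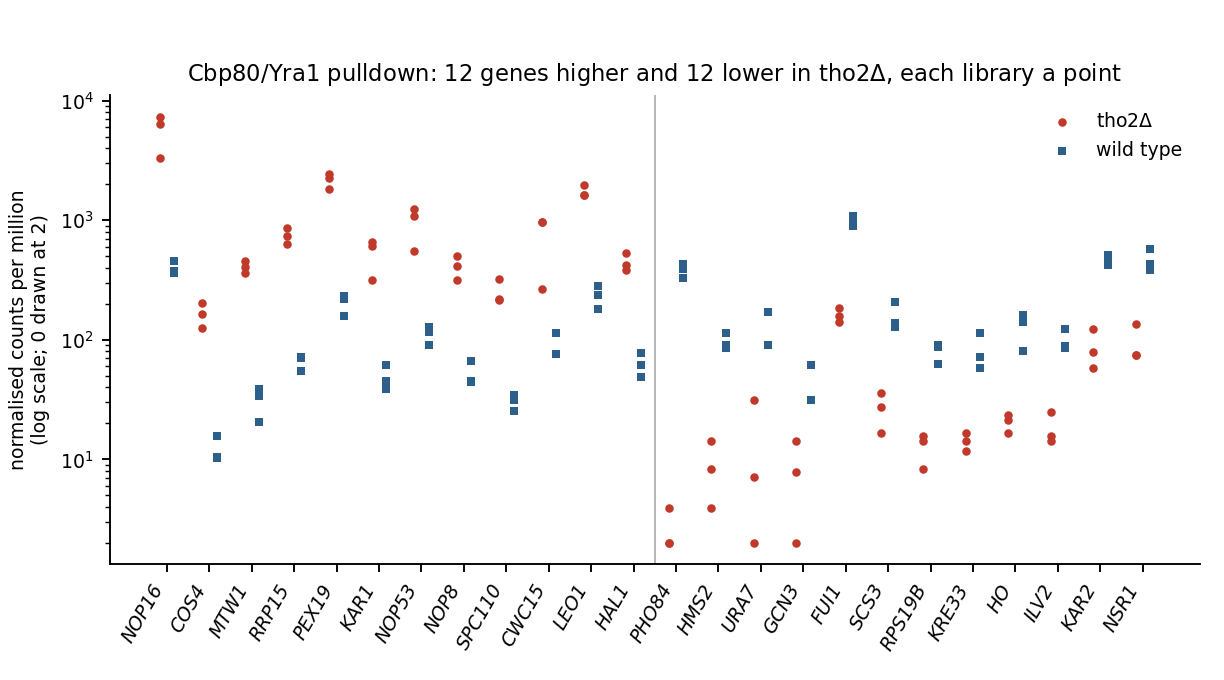
Normalised counts in CPM (log axis, counts of 0 drawn at 2) of the 12 highest and 12 lowest fold changes among called coding genes that averaged 20 CPM or more and had no overlap between genotypes, each pulldown library a point, tho2Δ left of wild type. NOP16 reaches 7353 CPM in tho2Δ while PHO84 has 3.95 CPM in one tho2Δ library and 0 in the others.

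The lowest gene was PHO84 (YML123C, chromosome XIII, 24037 to 25800), the high-affinity phosphate transporter, with 1, 0 and 0 counts in tho2Δ pulldowns against 110, 185 and 95 counts in wild type. That is a 197-fold lower share, with a 95% counting interval of 35.1 to 7786, which covers counting error only. In total RNA it had 0 counts over the 3 tho2Δ libraries against 251 over the 3 of wild type, at least 97.2-fold lower. An antisense gene (YNCM0001W) overlaps PHO84 and its reads cannot be told apart without strand.

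Other low genes encode a transporter, metabolic enzymes and a chaperone. FUI1 (chromosome II, 138341 to 140260), the uridine permease, had 142, 157 and 183 CPM in tho2Δ against 966, 1077 and 887 CPM in wild type (log2 -2.62 ± 0.26, adjusted p = 1.64e-13, total RNA -1.48 ± 0.13). URA7, a CTP synthase near it on the same chromosome (143989 to 145728), had 31.6, 7.14 and 0 CPM against 89.98, 169 and 89.7 CPM (log2 -2.76 ± 0.46, total RNA -0.62 ± 0.09). The genotypes did not overlap at either gene. ILV2 (chromosome XIII, 484084 to 486147), which makes the first step of isoleucine and valine synthesis, had 15.8, 14.3 and 25.01 CPM in tho2Δ against 86.1, 88.9 and 124 CPM in wild type (log2 -2.43 ± 0.45, adjusted p = 1.36e-05). KAR2 (chromosome X, 381327 to 383375), the Hsp70 chaperone of the endoplasmic reticulum, had 122, 78.5 and 58.4 CPM against 497, 510.1 and 421 CPM (log2 -2.35 ± 0.31, adjusted p = 1.32e-08). Their log2 fold changes in total RNA were smaller, at -0.55 ± 0.17 for ILV2 and -0.45 ± 0.12 for KAR2.

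A few low genes had nucleolar or regulatory products. NSR1, the yeast nucleolin, had 75.1, 136 and 75.0 CPM in tho2Δ against 383, 434 and 573 CPM in wild type (log2 -2.30 ± 0.29, adjusted p = 5.81e-10). KRE33, an RNA acetyltransferase of small subunit assembly, had 11.9, 14.3 and 16.7 CPM against 58.7, 72.0 and 114 CPM (log2 -2.49 ± 0.53), with a total RNA level of 370.4 ± 51.5 CPM in tho2Δ and 389 ± 35.9 CPM in wild type. Both assembly factors thus moved opposite to NOP16 and RRP15. GCN3, a regulatory subunit of the initiation factor eIF2B, fell by 2.64 ± 0.64 on the log2 scale from low counts. HO, the mating-type endonuclease, had 23.7, 21.4 and 16.7 CPM against 141, 80.4 and 162 CPM (log2 -2.48 ± 0.42), close to its change in total RNA (-2.18 ± 0.15). HMS2 (log2 -3.46 ± 0.57) overlaps another annotated gene on its own strand, and SCS3 (-2.54 ± 0.39) was too low in total RNA to test.

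Ribosome biogenesis was the functional gene list with the most calls in the higher direction. Of its 107 tested genes 23 rose (21.5%, against 10.1% of all tested genes) and 11 fell (10.3% against 7.87%), with a median log2 fold change of 0.24 in the pulldown and 0.01 in total RNA. The pulldown change exceeded the total RNA change at 22 of its 134 genes tested for the difference (16.4%, against 3.54% of all genes) and fell short of it at 4 (2.99% against 1.26%). Besides NSR1, its lowest members were RRP5, a scaffold of early pre-rRNA processing, with 51.4, 35.7 and 25.01 CPM in tho2Δ against 109.5, 135 and 93.2 CPM in wild type (log2 -1.49 ± 0.35), and ARX1, a pre-ribosome export factor (-1.65 ± 0.63, adjusted p = 0.0458). With single libraries left out, the ARX1 call was kept only without wild-type replicate 2, and the log2 fold change ran from -1.39 without wild-type replicate 3 to -2.34 without tho2Δ replicate 1. The list therefore held members at both ends of the comparison.

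Several lists of metabolic and housekeeping genes had more members lower than higher, as the plot of medians by gene group shows, though not all did. Oxidative phosphorylation had a median of 0.06 and no called member among 22 tested by edgeR or DESeq2 (4 higher and 4 lower at an unadjusted p under 0.05). Of 57 tested amino acid synthesis genes 19 fell (33.3%, against 7.87% of all tested genes) and no other was called, with a median of -0.67 in the pulldown and -0.25 in total RNA (30 were lower and 2 higher at an unadjusted p under 0.05, and 21 were lower in DESeq2). ARG4, the last enzyme of arginine synthesis, had 23.7, 21.4 and 41.7 CPM in tho2Δ against 153, 129 and 121 CPM in wild type (log2 -2.24 ± 0.39, adjusted p = 4.05e-06), and LEU1 of leucine synthesis had 31.6, 35.7 and 75.0 CPM against 172, 171 and 189.8 CPM (4.01-fold lower). Ribosomal protein genes fell at 22 of 131 tested (16.8%), with a median of -0.53 in the pulldown and -0.83 in total RNA. Between the pulldowns without a tag 14 of the 131 were lower too (10.7%, against 1.001% of all genes), with a median of -0.79. The pulldown change was the more positive at 1 of 137 tested against total RNA and the more negative at 0 (median difference 0.36). Their shares of gene counts overlapped, at 9.56%, 10.52% and 5.46% in tho2Δ pulldowns against 8.41%, 10.02% and 14.4% in wild type. RPL21A (-2.01 ± 0.25) and RPS19B (-2.50 ± 0.52) were the lowest ribosomal protein genes along with RPS18B, and each has a near-identical copy that makes its counts uncertain. The remaining lists with falls included nucleotide synthesis (7 of 30, median -0.38), heat shock proteins and chaperones (7 of 34, -0.30), aminoacyl-tRNA synthetases (5 of 21, -0.36) and sterol and fatty acid synthesis (8 of 31 lower and 1 higher, -0.45). Plasma membrane transporters had 7 lower and 2 higher of 37, translation factors 6 lower and 1 higher of 35, and cell wall genes 4 lower and 2 higher of 35. Glycolysis and fermentation had 3 of 19 lower with a median of -0.57, and the phosphate response had 4 of 13 lower with medians of -0.47 in the pulldown and -1.09 in total RNA.

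Histone and mating genes had the lowest medians. Of 9 tested histone genes 5 fell (55.6%, against 7.87% of all tested genes), with a median of -1.03 in the pulldown and -0.59 in total RNA. HTA1, for histone H2A, had 897, 1064 and 1017 CPM in tho2Δ against 2382, 2233 and 2043 CPM in wild type (log2 -1.16 ± 0.23, adjusted p = 4.95e-05), although HTA2 is a near-identical copy. Of 11 mating genes 5 fell (45.5%), with medians of -0.98 in the pulldown and -0.60 in total RNA. BAR1, the protease that degrades α-factor, had 47.4, 64.2 and 58.4 CPM against 203, 260.3 and 217 CPM (log2 -2.04 ± 0.31), and its total RNA log2 fold change was -1.26 ± 0.17. STE6, the a-factor exporter, fell by 1.36 ± 0.38, but tho2Δ replicate 3, at 133 CPM, lay within the wild-type range of 107 to 164 CPM, and the call was lost without tho2Δ replicate 1 (log2 -0.84).

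Some lists moved little or both ways. General stress genes had 5 higher (17.9%, against 10.1% of all tested genes) and 3 lower (10.7% against 7.87%) of 28, with OM45 of the mitochondrial outer membrane at 2.03 ± 0.24 and GAD1, glutamate decarboxylase, at -1.75 ± 0.43. The list had 7 higher (22.6%, against 5.34% of all genes) and 1 lower of 31 in total RNA. Between the pulldowns without a tag it had 6 higher (21.4%, against 0.801%) and 0 lower of 28. Its medians were -0.03 in the pulldown, 0.37 in total RNA and 1.02 without a tag. Proteasome genes had 4 higher of 36 (11.1%) and a median of 0.06, among them the ATPase RPT2 with 1078, 1214 and 1134 CPM in tho2Δ against 258, 260.3 and 331 CPM in wild type (log2 2.01 ± 0.24, total RNA 0.12 ± 0.09). Iron response genes had 2 higher of 12 with a median of 0.48, HMX1 and FIT2, whose calls were lost without wild-type replicate 2 (log2 0.88) and replicate 3 (0.99). The nuclear exosome and termination list had 2 of 19 in each direction, mRNP assembly and export 2 higher and 1 lower of 18, and the secretory pathway 2 of 41 in each direction. Intron-containing genes outside the ribosomal protein list had 9 higher and 1 lower of 108, with a median of 0.16 in the pulldown and 0.05 in total RNA, and the subtelomeric genes, those up to 20 kb from an end, had 8 higher (19.5%) and 4 lower (9.76%) of 41.

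**Figure D2:**
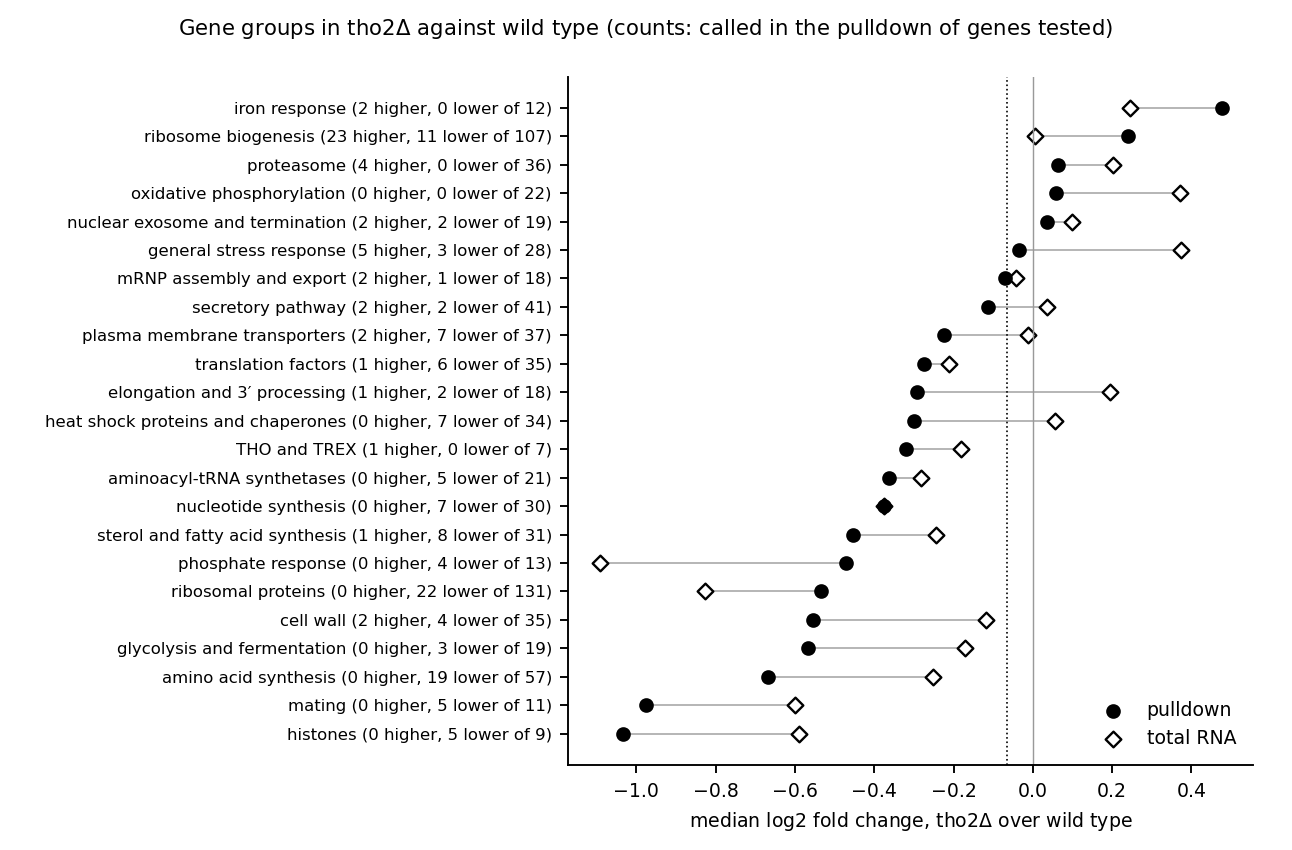
Median log2 fold change of tho2Δ over wild type for the tested genes of each list, in the pulldown (filled circles) and in total RNA (open diamonds), with the genes called in the pulldown in brackets and the median of all pulldown genes as a dotted line at -0.06. Histone and mating genes sit lowest at -1.03 and -0.98, and ribosome biogenesis sits at 0.24 in the pulldown but at 0.01 in total RNA.

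The mRNAs of the complexes under study showed few calls. The THO and TREX list had 1 higher of 7 tested (14.3%, against 10.1% of all tested genes) and 0 lower (against 7.87%). Its median was -0.32, beside -0.06 over all tested genes. The called gene was MFT1, a THO subunit, with 699, 671 and 442 CPM in tho2Δ against 239, 313 and 135 CPM in wild type (log2 1.39 ± 0.25, adjusted p = 6.73e-06, total RNA 0.27 ± 0.11). HPR1 had 83.0, 64.2 and 100.04 CPM against 137, 150.3 and 148 CPM (log2 -0.82 ± 0.31, adjusted p = 0.0354), short of the fold threshold. YRA1 (-0.65 ± 0.52), SUB2 (-0.50 ± 0.35) and THP2 (-0.32 ± 0.25) had libraries that overlapped between genotypes. STO1, the gene of the tagged Cbp80, had 146, 293 and 208 CPM in tho2Δ against 168, 108 and 197 CPM in wild type (log2 0.44 ± 0.28, adjusted p = 0.247), while its total RNA log2 fold change was -0.68 ± 0.15, so that the change in the pulldown exceeded that in total RNA by 1.26 ± 0.33. The log2 fold changes of NAB2 (0.04 ± 0.22) and NPL3 (0.28 ± 0.25), which encode mRNA-binding proteins of the nucleus, had adjusted p-values of 0.921 and 0.411. AAH1, adenine deaminase, lies beside THO2 on chromosome XIV (359596 to 360639) and was lower in the pulldown (log2 -1.15 ± 0.38) and in total RNA (-0.90 ± 0.16, not past the fold threshold). Without tho2Δ replicate 1 or 2 the pulldown value of AAH1 was -0.98 and -0.89, no longer a call.

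Among noncoding RNAs the telomerase RNA TLC1 (chromosome II, 307587 to 308887) had 395, 471 and 500.2 CPM in tho2Δ against 1166, 1270 and 1301 CPM in wild type (log2 -1.46 ± 0.23, adjusted p = 7.28e-07, total RNA -0.74 ± 0.10). Of 67 small nucleolar RNAs 3 fell (4.48%, below the 7.87% of all tested genes), SNR84 (-1.34 ± 0.26), SNR87 (-1.28 ± 0.24) and SNR55 (-1.21 ± 0.25). SNR84 had 111, 143 and 133 CPM against 231, 368 and 355 CPM in the pulldown, and 4174 ± 578 CPM in tho2Δ and 3989 ± 248 CPM in wild type in total RNA. The spliceosomal RNAs together took 0.514%, 0.618% and 0.753% of gene counts in tho2Δ pulldowns, against 0.802%, 0.950% and 0.936% in wild type. Their ranges did not overlap, with an exact permutation p of 0.1 (adjusted over 11 classes 0.825), the smallest that the design allows. The transfer RNA gene YNCG0028W (1.70 ± 0.24) and the 5S RNA gene RDN5-1 (1.52 ± 0.30, one of several copies) rose in the pulldown and in total RNA.

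Long genes have been of interest for THO, so genes were split by coding length. Medians of the pulldown fold change fell with length, at 0.10 up to 500 nt, 0.00 from 500 to 1000 nt, -0.08 from 1000 to 2000 nt, -0.25 from 2000 to 4000 nt and -0.43 above 4000 nt. In total RNA the corresponding medians were 0.04, 0.06, 0.07, -0.12 and -0.46. Among genes above 4000 nt 15 of 99 fell (15.2%, against 7.87% of all tested genes) and 4 rose (4.04% against 10.1%) in the pulldown. The change in the pulldown was the more positive at 14 of 185 such genes tested against total RNA (7.57%, against 3.54% of all genes). It was the more negative at 1 (0.541% against 1.26%), and the median difference was 0.11. MDN1 (chromosome XII, 349006 to 363738), which encodes a giant AAA ATPase of ribosome assembly, had 47.4, 64.2 and 58.4 CPM in tho2Δ against 141, 144 and 131 CPM in wild type (log2 -1.32 ± 0.33, adjusted p = 0.00102) and 814 ± 49.2 CPM against 2194 ± 178 CPM in total RNA (-1.43 ± 0.10). The 2 changes differed by 0.24 ± 0.31. IRA2, for a Ras regulator, had a pulldown log2 fold change of -0.85 ± 0.34 (adjusted p = 0.0513) and one of -1.18 ± 0.13 in total RNA. Genes above 4000 nt took 1.57%, 1.47% and 1.98% of gene counts in tho2Δ pulldowns against 1.89%, 2.01% and 1.79% in wild type, which overlap (exact permutation p = 0.3, adjusted 0.825).

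A test of the difference between the pulldown change and the total RNA change gave the genes whose share in the pulldown moved apart from their share in the lysate. The change in the pulldown was the more positive at 189 of 5337 genes (3.54%) and the more negative at 67 (1.26%), 4.80% in all. With the lysate as a block, since pulldown and total RNA of one number came from one lysate, the counts were 174 and 42. With total-count scaling the median over all genes moved to -0.26 and the counts to 124 and 181, so the split between directions depends on the scaling. The lower count also hung on single libraries, with 31 without tho2Δ pulldown replicate 1, 116 without tho2Δ pulldown replicate 3, 104 without wild-type pulldown replicate 1 and 113 without wild-type pulldown replicate 3. Of the 302 genes that rose in the pulldown 128 were also called for the difference (42.4% of the 302 and 67.7% of the 189).

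Among coding genes called for the difference that averaged 20 CPM or more in the pulldowns without overlap between genotypes, the largest positive differences were those of MTW1 (3.37 ± 0.36), NOP16 (2.97 ± 0.29), PEX19 (2.91 ± 0.24), LEO1 (2.74 ± 0.24), IES2 (2.74 ± 0.27) and KAR1 (2.68 ± 0.32). The lowest of the same set were COS7 (-4.52, with a near-identical copy in COS5), GCN3 (-2.36 ± 0.66), KRE33 (-2.33 ± 0.49), TBF1, a factor that binds repeats near telomeres (-2.27), the putative transporter gene YMD8 (-2.05) and URA7 (-2.03 ± 0.50). KRE33 and GCN3 differed little in total RNA, with log2 fold changes of -0.06 ± 0.11 and -0.23 ± 0.21, while HXT4, a hexose transporter, rose by 2.33 ± 0.17 there and by 1.41 ± 0.24 in the pulldown. At chromosome XVI genes the median difference was -0.04, and 95 of the 250 tested there rose in the pulldown with a median of 0.83, near the 0.95 of total RNA.

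**Figure D3:**
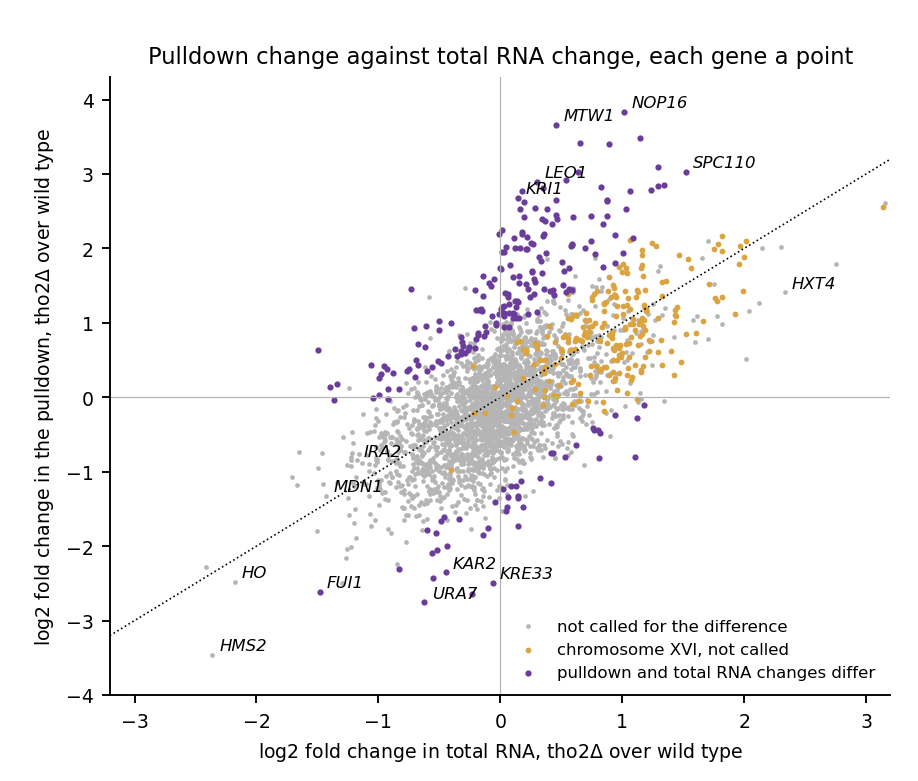
Log2 fold change of tho2Δ over wild type in the pulldown against that in total RNA, each tested gene a point, with equality as a dotted line, genes called for the difference in purple, other chromosome XVI genes in yellow, and PHO84 outside the axes. NOP16 lies at 3.83 in the pulldown and 1.02 in total RNA, and KRE33 at -2.49 and -0.06.

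The called genes also differed in base composition, a property looked at after their values had been seen, so what follows is a description without a test. Coding sequences of genes higher in tho2Δ had a median of 35.6% adenine, those of genes lower had 30.8%, and those of genes not called had 32.2%. Of the 12 genes with the largest rises plotted by library, 10 ran from 36.4% adenine in MTW1 to 44.01% in NOP53, while HAL1, a halotolerance gene, had 35.8% and COS4 had 29.0%. The 12 lowest genes ran from 20.6% in SCS3 to 33.2% in HO. Median fold changes of the pulldown by adenine content were -0.24 up to 28%, -0.26 from 28% to 30%, -0.16 from 30% to 32%, -0.17 from 32% to 34%, 0.04 from 34% to 36%, 0.34 from 36% to 38%, 0.83 from 38% to 40% and 1.47 above 40%. The corresponding medians in total RNA ran from -0.11 to 0.23, with 0.20 and 0.23 in the 2 highest classes. All these medians are over genes that passed the filter on low counts. Across 2863 genes that share the same 6 libraries, adenine content and the pulldown fold change had a Spearman correlation of 0.30, against 0.14 in total RNA (4649 genes) and 0.05 between the pulldowns without a tag.

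Counts on the most adenine-rich genes need no filter on low counts. All 134 coding genes above 40% adenine together held 16477 of 236308 coding counts in tho2Δ replicate 1, which is 6.97%. The shares were 6.97%, 6.60% and 5.78% in tho2Δ pulldowns, against 2.28%, 2.78% and 2.61% in wild type (6.45% ± 0.61 against 2.55% ± 0.26, SD, n = 3 each), and the genotypes did not overlap. In total RNA the shares were 4.81%, 4.80% and 4.94% in tho2Δ against 3.97%, 3.60% and 3.74% in wild type, a smaller gap. Pulldowns without a tag had 2.64%, 2.57% and 2.86% in tho2Δ and 2.72%, 2.81% and 2.64% in wild type, which overlap. At the other end, the 783 genes up to 28% adenine took 18.0%, 19.0% and 19.6% in tho2Δ pulldowns against 22.7%, 22.1% and 23.4% in wild type.

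Of these 134 genes 66 had every tho2Δ library above every wild-type library, 7 had the reverse and 7 had no count in any of the 6. The 43.8% without overlap given above counts both directions over tested genes only. It is therefore not a like share for these 134, and no share by direction over all genes was made. The 79 of the 134 that passed the filter included 52 that rose (65.8%, beside 10.1% of all tested genes). The rest were not called (3 were lower at an unadjusted p under 0.05, and none was lower in DESeq2). A gene could pass the filter on its counts in 1 group alone, so genes high only in tho2Δ could enter the 79. With no filter the class median was 1.01 in place of 1.47. Of the 134, 7 lie on chromosome XVI, and without those the median was 1.46. The ribosome biogenesis list holds 8, but it leaves out assembly factors such as NOP53, CGR1 and TMA23. Within that list, 20 of 44 genes above 36% adenine rose and 1 fell (median 0.93), while 3 of 63 at or below 36% rose and 10 fell (median -0.05). Among all tested coding genes 18.9% rose from 36% to 38% adenine, 37.8% from 38% to 40% and 65.8% above 40%. In the classes at or below 36% between 3.15% and 9.13% rose and between 3.94% and 12.9% fell. By class of coding length, medians above 38% adenine were 0.69, 1.26, 1.46, 0.79 and 0.38 from the shortest to the longest class, against 0.06, -0.06, -0.12, -0.30 and -0.45 at or below 38%. The longest class held 6 tested genes above 38%, of which 1 was called. The lysine codons AAA and AAG are themselves rich in adenine. Above 38% adenine the medians were 0.98, 0.90 and 1.19 in genes with up to 8%, 8% to 12% and over 12% lysine codons. At or below 34% adenine they were -0.21, -0.16 and -0.42. The longest run of adenines was less related to the fold change (Spearman 0.07) than overall content was, and content in the 5′, middle and 3′ parts of equal length gave 0.26, 0.24 and 0.22.

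**Figure D4:**
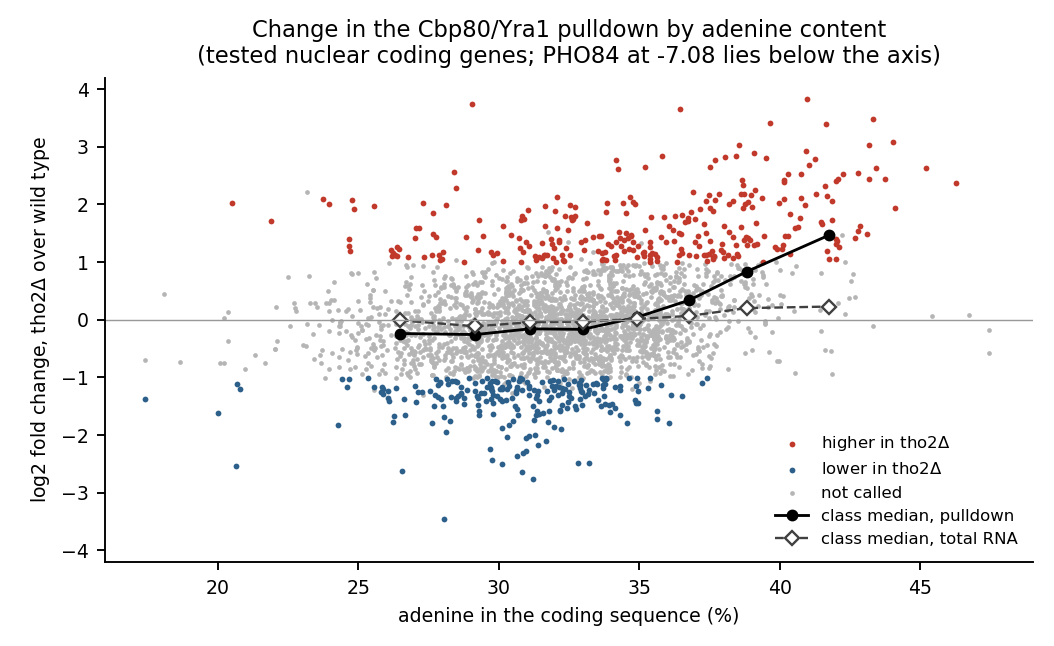
Log2 fold change of tho2Δ over wild type in the pulldown against the percent of adenine in the coding sequence for tested nuclear coding genes, with the median of each adenine class in the pulldown (filled circles) and in total RNA (open diamonds). The pulldown medians climb to 0.83 and 1.47 in the 2 highest classes, where total RNA reaches 0.20 and 0.23.

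**Figure D5:**
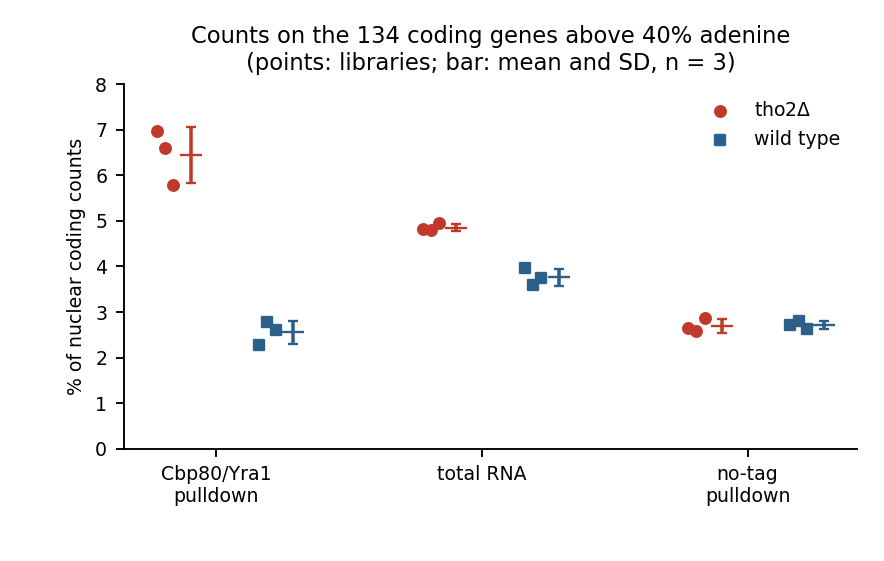
Percent of nuclear coding counts on the 134 genes above 40% adenine, each library a point beside its group's mean and SD, with tho2Δ left of wild type for the Cbp80/Yra1 pulldown, total RNA and the pulldown without a tag. The tho2Δ pulldowns sit between 5.78% and 6.97%, above the wild-type pulldowns at 2.28% to 2.78%.

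To show what this composition looks like, the 90-base coding stretch richest in adenine is given for 4 genes that rose and 3 that fell, from RefSeq's R64 sequence on the coding strand, 5′ to 3′, with adenines in capitals. The 4 are NOP16 (chrV:156803-156892, plus strand, 44 adenines), KAR1 (chrXIV:286801-286890, plus strand, 45), KRI1 (chrXIV:54586-54675, minus strand, 58) and TMA23 (chrXIII:804879-804968, plus strand, 56). The 3 are FUI1 (chrII:140058-140147, minus strand, 41), KAR2 (chrX:383068-383157, plus strand, 42) and ILV2 (chrXIII:485431-485520, plus strand, 42).
NOP16: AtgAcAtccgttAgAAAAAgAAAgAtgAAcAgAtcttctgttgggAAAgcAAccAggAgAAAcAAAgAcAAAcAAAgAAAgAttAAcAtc
KAR1: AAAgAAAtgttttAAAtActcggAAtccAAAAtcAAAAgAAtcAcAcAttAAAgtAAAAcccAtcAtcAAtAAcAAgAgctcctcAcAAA
KRI1: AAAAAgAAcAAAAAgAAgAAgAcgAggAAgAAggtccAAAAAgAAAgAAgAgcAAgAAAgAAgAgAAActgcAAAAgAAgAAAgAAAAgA
TMA23: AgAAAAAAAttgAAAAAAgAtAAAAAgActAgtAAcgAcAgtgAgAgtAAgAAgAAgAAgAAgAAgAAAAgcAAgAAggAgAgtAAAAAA
FUI1: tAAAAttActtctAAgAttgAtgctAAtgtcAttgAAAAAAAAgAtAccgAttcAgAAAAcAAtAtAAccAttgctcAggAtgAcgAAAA
KAR2: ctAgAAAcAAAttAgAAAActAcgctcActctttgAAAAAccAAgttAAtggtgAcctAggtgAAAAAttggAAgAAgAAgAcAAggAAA
ILV2: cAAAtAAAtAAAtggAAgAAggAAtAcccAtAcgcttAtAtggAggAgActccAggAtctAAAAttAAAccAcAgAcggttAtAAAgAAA

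Over all called genes the richest stretch held a median of 44 adenines in those that rose and 40 in those that fell, against 41 in genes not called. KRI1 and TMA23, chosen after their values were seen, encode nucleolar proteins of ribosome assembly with long lysine-rich segments. KRI1 had 2477, 2020.2 and 2343 CPM in tho2Δ pulldowns against 407, 421 and 238 CPM in wild type (log2 2.68 ± 0.26), and its total RNA was 1415 ± 133 CPM in tho2Δ and 1281 ± 82.9 CPM in wild type. TMA23 had 2343, 1842 and 1892 CPM against 438, 385 and 214 CPM (log2 2.55 ± 0.25, total RNA 0.28 ± 0.13). Their adenine contents were 41.0% and 42.8%, against 26.6% in FUI1, 30.6% in KAR2 and 29.7% in ILV2. Adenine-rich genes that did not rise were also present, such as MLP1 of the nuclear pore basket at 83.0, 99.9 and 100.04 CPM in tho2Δ and 66.5, 88.9 and 100.06 CPM in wild type (log2 0.10 ± 0.33).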

How the data were processed

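The 6 pulldown libraries, the 6 total RNA libraries of the same strains and the other 18 libraries of the series were 3′ tag (QuantSeq) libraries with unique molecular identifiers, 3 biological replicates a group per the study's methods. The labels do not name separate cultures, so p-values measure the spread between these samples. The authors trimmed the reads, set rRNA reads aside, aligned to build R64 with STAR 2.7.10a, collapsed duplicates with UMI-tools 1.0.1 and counted with HTSeq 2.0.2, and the deposited count table holds whole numbers that are not normalized. The strand setting of the counting is not given in the sources used here. A library sequenced on 2 machines is 1 column, which here concerns wild-type pulldown replicate 2. A normalized table of the authors, made with DESeq2 1.38.2, was not used.

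Rows that name no gene were dropped from library sizes and tests. Of 6461 genes, 6458 matched R64. edgeR 4.0.16 in R 4.3.3 (TMM, filterByExpr with a minimum count of 10, robust quasi-likelihood F test) was fitted over the 15 pulldown libraries, over the 15 total RNA libraries, and over the 12 libraries of both kinds from the Cbp80-PrA strains for the difference between pulldown and total RNA. Calls needed a Benjamini-Hochberg adjusted p under 0.05 together with a log2 fold change past 1 or -1. SE is the log2 fold change over the root of F. Shares of counts were compared by an exact two-sided permutation test over libraries, which cannot go below 0.1. Copies were sought with BLAST 2.17.0 (90% identity over 100 nt). On simulated counts for the pulldown comparison (2462 genes), 46 of 55 genes changed by log2 1.5, 53 of 58 by 2 and 63 of 63 by 3 were called, and 4 of 2286 unchanged genes. The simulation drew every strain from the wild-type Cbp80 pulldown means with a single fixed spread for all genes. The real libraries differ by strain and in spread, so these rates need not hold for them.

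Members and gene lists were chosen with earlier results of these data known. Named genes came from 134 taken by rule: the 12 highest and 12 lowest fold changes of called coding genes whose mean reached 20 CPM and whose genotypes did not overlap, with and without chromosome XVI, 4 noncoding RNAs and 3 members of each list per direction, 6 genes per direction of the difference, THO2 and its neighbours, and genes of THO, TREX and mRNP assembly. The text gives a part of these. Alternatives were other scalings, DESeq2 1.42.0, no filter, a test against the fold threshold, only the 6 libraries, a replicate block, each library left out and chromosome XVI left out. Added after seeing the data were thinning of libraries to the lowest depth, the adenine classes and their cutoffs. Pulldown and total RNA of one number share a lysate by the methods, and the correlations of their deviations from the group means were -0.05 to 0.11.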

Additional observations from a re-analysis of the deposited data

Results flagged for a closer look

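The effect of tho2Δ differed between the pulldown and total RNA at 189 genes in the positive direction and 67 in the negative direction by edgeR's test of the difference itself. The pulldown libraries were shallower and varied more than the total RNA libraries, with biological coefficients of variation of 0.194 and 0.0867.

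Counts outside the gene rows, which enter no comparison of genes, took 60.8% ± 2.46 of all counts in tho2Δ pulldowns and 53.2% ± 2.50 in wild-type pulldowns (SD, n = 3 each), with the lowest tho2Δ library at 59.2% and the highest wild-type library at 55.8%. The same share was 54.9% ± 0.94 in tho2Δ and 51.5% ± 1.81 in wild type for pulldowns without a tag, and 50.3% ± 1.91 and 51.9% ± 1.02 for total RNA. Where in the genome these counts fall was not analysed here.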

How the results depend on the processing

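Counts of called genes in the pulldown stayed within 1.5 times of 302 higher and 236 lower with these exceptions. Without a filter 364 were lower, and a test against the fold threshold itself kept 134 (105 higher, 29 lower). That test kept 47 in total RNA (33 higher, 14 lower) and 44 for the difference between pulldown and total RNA (44 higher, 0 lower, although 66 were lower at an unadjusted p under 0.05). Leaving out chromosome XVI left 167 in total RNA, 90 of them higher. Leaving out each library gave 509 to 581 called genes in the pulldown (288 to 318 higher, 218 to 288 lower), 340 to 390 in total RNA (238 to 289 and 101 to 115) and 184 to 256 for the difference (138 to 175 and 31 to 116).

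For the difference, lower genes numbered 44 in DESeq2, 41 after thinning and 42 with the replicate block, and total-count scaling gave 124 higher and 181 lower. The replicate block left the pulldown at 304 higher and 235 lower and total RNA at 261 and 105, but there the genotypes share only a number, and their deviations correlated at -0.41 to -0.09 in pulldowns and at -0.05 to 0.06 in total RNA.

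With all counts as the denominator the difference in share, tho2Δ minus wild type, became -6.53 points for nuclear coding genes, -2.02 for lengths of 500 to 1000 nt and -2.59 for 1000 to 2000 nt. The share above 40% adenine differed by 3.896 points, by 6.07 above 38%, by 7.31 above 36% and by 3.64 to 4.23 with a library left out. Without the genes of the ribosome biogenesis list it differed by 2.62 points of the same coding counts. It differed by 2.75 with those genes also left out of the coding counts. The class median of 1.47 was 1.01 with no filter and 1.42 to 1.58 with a library left out.

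Of 123 named genes followed under 15 alternatives 57 kept their side of the threshold, 64 lost a call under at least 1 (all 64 under the test against the fold threshold), 2 gained one and none changed sign. The filter over all 15 pulldown libraries left 2997 genes to test, and that over only the 6 left 4099 (386 higher, 251 lower).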
